A study of Mus musculus with 8 samples.

Results

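The myosin light chain genes are described here in tibialis anterior (TA) muscle of mdx5cv and wild type (WT) mice. The members are the 10 light chain genes Myl1, Myl2, Myl3, Myl4, Myl6, Myl6b, Mylpf, Myl9, Myl12a and Myl12b, chosen by gene name from a table of 55401 genes. Each gene was read in 4 mdx5cv and 4 WT muscles by bulk RNA-seq. All mice were 6 mo old males on the C57/Bl6 background, and the labels name no treatment. The mdx5cv mouse carries a point mutation in Dmd, the gene of dystrophin, and is a model of Duchenne muscular dystrophy. The mutation is carried by every cell of the animal, and dystrophic muscle is known to hold regenerating fibers, inflammatory cells and fibrous tissue beside mature fibers.

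A myosin II motor is built from heavy chains, which carry the motor head, and from light chains that wrap around the neck of each head. Every neck binds an essential light chain, which stiffens the lever arm, and a regulatory light chain, which can be phosphorylated by a light chain kinase. Vertebrates use different light chain genes in fast fibers, in slow fibers and heart, in developing muscle, and in smooth muscle and nonmuscle cells, so the mixture of transcripts is widely used as a sign of fiber type and maturity.

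Dmd itself lay between 6169 and 8155 normalized counts in the WT muscles and between 3461 and 4400 in the mdx5cv muscles, which is in the direction of the genotype labels. Between 13175524 and 14921057 reads per muscle were assigned to genes. A normalized count is a read count divided by the size factor of its sample, a scaling constant that ranged from 0.873 to 1.25 and was above 1 in every mdx5cv and below 1 in every WT library. Skeletal muscle genes (Ckm, Acta1, Myh4, Des and Mb) were abundant in all 8 muscles, with summed levels from 559271 to 934886. The atrial peptide gene Nppa had no read in any muscle. Nppb, Myl7 and Tnni3, other genes that mark heart muscle, did not exceed 4.79 normalized counts. The other heart markers listed were Myh6 at 5.56 to 64.2, Tnnt2 at 7.68 to 475 and Actc1 at 775 to 5182. Tnnt2 and Actc1 are also genes of immature skeletal muscle. Regenerating fiber genes summed to 118 to 143 normalized counts in WT and 2175 to 8502 in mdx5cv, and macrophage genes to 323 to 540 and 3255 to 7933. In bulk tissue, fewer cells of a type and less RNA per cell cannot be told apart.

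Promoter sequences are shown for 3 members that were called between the genotypes and that stand for different kinds of muscle, namely the slow Myl3, the smooth muscle Myl9 and the developmental Myl4. Each covers 250 bases before and 50 bases after a RefSeq transcript start on GRCm38.p6, written 5′ to 3′ along the strand of the gene. Capitals mark matches to the E-box CANNTG, which the myogenic factors of the MyoD family bind, and to the CArG box, which serum response factor binds. The Myl3 window is chr9:110763428-110763727 (+), the Myl9 window is chr2:156775214-156775513 (+) and the Myl4 window is chr11:104550413-104550712 (+).
Myl3: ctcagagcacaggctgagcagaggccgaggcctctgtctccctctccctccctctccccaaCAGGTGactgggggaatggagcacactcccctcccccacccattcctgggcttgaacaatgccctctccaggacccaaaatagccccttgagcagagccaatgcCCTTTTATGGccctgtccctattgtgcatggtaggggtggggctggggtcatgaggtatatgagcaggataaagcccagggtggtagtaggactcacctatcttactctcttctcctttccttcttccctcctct
Myl9: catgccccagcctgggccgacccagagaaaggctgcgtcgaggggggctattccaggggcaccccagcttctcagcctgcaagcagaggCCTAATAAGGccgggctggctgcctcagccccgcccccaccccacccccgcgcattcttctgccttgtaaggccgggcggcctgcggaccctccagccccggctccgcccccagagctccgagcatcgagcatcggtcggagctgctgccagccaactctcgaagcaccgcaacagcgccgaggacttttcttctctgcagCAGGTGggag
Myl4: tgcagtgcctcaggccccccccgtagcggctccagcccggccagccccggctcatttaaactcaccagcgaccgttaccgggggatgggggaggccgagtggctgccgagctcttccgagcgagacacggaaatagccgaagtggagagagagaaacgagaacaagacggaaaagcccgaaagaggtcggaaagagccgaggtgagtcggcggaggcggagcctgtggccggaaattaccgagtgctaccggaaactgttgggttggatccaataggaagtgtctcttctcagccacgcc

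Myl3 has an E-box that begins at position −189 relative to the transcript start and a CArG box at −85. Myl9 has a CArG box at −161 and an E-box at 41, among the first transcribed bases, and the Myl4 window holds neither motif. All 10 members were found in the RefSeq table, with 12 promoters in all, of which 10 hold an E-box, 3 a CArG box and 0 a MEF2 site. Both strands were searched, and no printed E-box overlaps a CArG box. Over all 32851 mouse promoters of the same length, 72.3% hold an E-box, 1.63% a CArG box and 3.19% a MEF2 site. The third CArG box of the family lies before one of the starts of Myl6. These matches describe the letters of the window only.

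Of the 10 members, 2 were called higher in mdx5cv muscle (Myl4 and Myl6b), 2 were called lower (Myl3 and Myl9) and 6 were not called (Myl1, Mylpf, Myl2, Myl6, Myl12a and Myl12b). A call is an adjusted p under 0.05 from limma, Benjamini-Hochberg adjusted over 13677 genes whose normalized counts averaged 10 or more. Among all genes tested, 20.9% were called higher and 20.1% lower, so the share of light chain genes called was close to that of all genes. When a log2 fold change of 1 or more in size was also required, Myl4 and Myl6b remained higher and Myl3 remained lower, against 10.3% and 3.27% of all genes. The mdx5cv and WT values did not overlap for 5 members (Myl1, Myl3, Myl4, Myl6b and Myl9), which was also the case for 40.1% of all genes. The median log2 fold change of the members was −0.01 and that of all genes tested was 0.00. The single members differed widely, from −3.56 for Myl3 to 3.37 for Myl4.

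**Figure D1:**
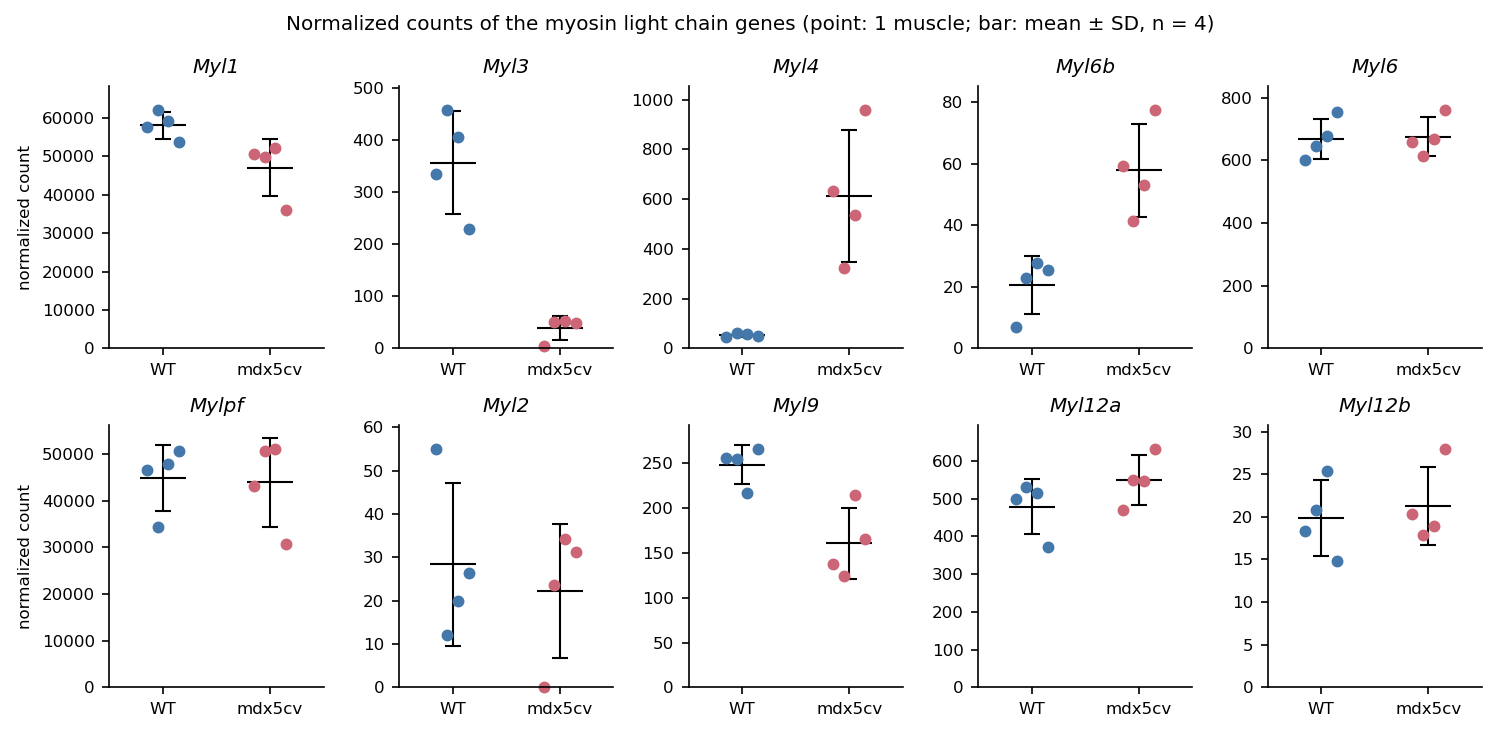
Normalized counts (y axis, linear, from 0, with a scale for each gene) of the 10 myosin light chain genes in 4 WT and 4 mdx5cv TA muscles; points are single muscles and bars are the mean ± SD. Myl3 lies near 357 in WT and 38.7 in mdx5cv, Myl4 near 54.5 and 613, and the points of Mylpf, Myl6, Myl2, Myl12a and Myl12b overlap between the groups.

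The fast skeletal light chains dominated the family in both genotypes. Myl1 (chr1:66924295-66945404, minus strand, GENCODE M21 on GRCm38) encodes the essential light chain of fast fibers, and Mylpf (chr7:127208890-127214298, plus strand) the regulatory light chain of the same fibers. They held 98.2% ± 0.172 (SD, n = 4) of the reads on the 10 members in WT and 97.6% ± 0.991 (SD, n = 4) in mdx5cv. All 10 members together took 0.662% ± 0.0561 of the reads of a WT muscle and 0.746% ± 0.0757 of those of an mdx5cv muscle (SD, n = 4).

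Myl1 was read at 57549, 62119, 59090 and 53646 normalized counts in WT replicates 1 to 4 and at 50528, 49777, 52078 and 36014 in mdx5cv replicates 1 to 4. All mdx5cv muscles were below all WT muscles, and mdx5cv replicate 4 stood clearly below the other three. The means were 58101 ± 3525 and 47099 ± 7452 (SD, n = 4), a log2 fold change of −0.32 (SE 0.17) that limma did not call (adjusted p = 0.161). Its direction depended on the scaling, since with every library scaled to the same total it was 0.042. The gene has alternative starts that give a longer and a shorter essential chain, and the gene-level values do not separate them.

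Mylpf gave 46544, 34437, 47927 and 50586 normalized counts in WT and 43085, 50752, 51142 and 30808 in mdx5cv. The groups overlapped, with WT replicate 2 and mdx5cv replicate 4 low. The log2 fold change was −0.04 (SE 0.20, limma adjusted p = 0.882). Mylpf was also set against the heavy chains of the fast fibers within each muscle. Its log2 ratio to the sum of Myh1, Myh2 and Myh4 averaged −3.61 ± 0.0306 in the WT and −3.56 ± 0.0790 in the mdx5cv muscles (SD, n = 4), which differ by 0.05 (exact two-sided permutation p = 0.343). The same ratio for Myl1 differed by −0.23 (exact permutation p = 0.257), and that of Myl1 to Mylpf by −0.27 (exact permutation p = 0.143).

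The marker list of fast fibers, which holds Myh4 and Myh1 beside fast troponins, Atp2a1, Actn3 and Pvalb, had 0 genes called higher and 4 called lower (Tnnt3, Tnni2, Tnnc2 and Actn3) of 8 tested. With equal library totals it had 1 higher and 1 lower, and without mdx5cv replicate 1 it had 2 lower. Neither Myl1 nor Mylpf was called under any alternative.

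Myl3 encodes the essential light chain of slow fibers and of the ventricle (chr9:110741861-110769798, plus strand). The printed start lies inside this interval, because the annotation also holds transcripts that begin further upstream. In WT replicates 1 to 4 its normalized counts were 335, 459, 407 and 229, and in mdx5cv replicates 1 to 4 they were 4.63, 50.0, 52.2 and 47.9. Every mdx5cv muscle was far below every WT muscle, and mdx5cv replicate 1, with 5 reads, was far below the other mdx5cv muscles. The means were 357 ± 99.5 and 38.7 ± 22.8 (SD, n = 4), so the gene was 9.23-fold lower. The log2 fold change on the log2(normalized count + 1) scale was −3.56 (SE 0.57, limma adjusted p = 0.000326). Without mdx5cv replicate 1 it was −2.76, and it was called under every alternative in which the gene was tested. On the other strand, 4.65% of its exon bases are shared with Pth1r, which did not exceed 16.04 normalized counts.

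Myl2 encodes the regulatory light chain that pairs with Myl3 in slow fibers and the ventricle (chr5:122100951-122113472, plus strand). It was read at 55.0, 12.1, 19.9 and 26.5 normalized counts in WT and at 0, 23.6, 34.2 and 31.2 in mdx5cv. The groups overlapped, and the zero belonged to mdx5cv replicate 1, where no read allows up to 2.78 normalized counts (3 reads, counting error only). The log2 fold change was −0.98 (SE 0.91, limma adjusted p = 0.418). It rested on that muscle, because without it the value was 0.25 (limma adjusted p = 0.669).

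The slow essential and regulatory light chains were also compared with each other. The log2 ratio of Myl3 to Myl2 within a muscle averaged 3.77 ± 1.16 for WT and 1.19 ± 0.897 for mdx5cv (SD, n = 4). With the pseudocount of 1, the mdx5cv values were below the WT values by −2.58 on average (exact permutation p = 0.0286, the smallest that 4 against 4 muscles can give, and 0.0571 after adjustment over the 10 ratios tested). The nearest muscles were mdx5cv replicate 1, where Myl2 had no read, at 2.49 and WT replicate 1 at 2.58. With a pseudocount of 0.1 that mdx5cv muscle was at 5.56, the groups overlapped, and the difference was −1.85 (exact permutation p = 0.229), so the separation rested on the pseudocount given to the zero.

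Both slow light chains were also set against Myh7, the heavy chain of slow fibers. Myh7 lay at 33.2, 13.2, 28.7 and 122 normalized counts in WT and at 19.5, 125, 176 and 230 in mdx5cv, with 3 of the mdx5cv muscles above all WT muscles and mdx5cv replicate 1 among the low WT values (log2 fold change 1.47, SE 0.70, limma adjusted p = 0.111). It was called higher without mdx5cv replicate 1 (2.24, limma adjusted p = 0.00638), without WT replicate 4 (2.06, 0.0275) and with equal library totals (1.82, 0.0457). The log2 ratio of Myl3 to Myh7 was 3.25 ± 1.72 in WT and −1.79 ± 0.383 in mdx5cv, a difference of −5.03. That of Myl2 to Myh7 was −0.52 ± 1.21 and −2.97 ± 0.951, a difference of −2.45 (SD, n = 4 for each). Neither ratio overlapped between the groups with the pseudocount of 1 (exact permutation p = 0.0286 and adjusted p = 0.0571 for both). The ratio of Myl2 to Myh7 came close to overlapping, with −2.16 in WT replicate 4 and −2.33 in mdx5cv replicate 3. With a pseudocount of 10 it did overlap, and the difference was −1.62 (exact permutation p = 0.0571).

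Myl3 went the other way from most of the other slow fiber genes. Of the 7 genes of the slow fiber list, 5 were called higher (Tnnt1, Tnni1, Tnnc1, Tpm3 and Atp2a2), 1 lower (Myoz2, a Z-disc protein) and Myh7 was not called. Without mdx5cv replicate 1 Myh7 was called too, giving 6 higher, and with equal library totals 6 were higher and 0 lower. The summed level of the list was 818 to 997 normalized counts in WT and 1646 to 3222 in mdx5cv. Tnni1, slow troponin I, lay between 8.84 and 23.3 in WT and between 117 and 522 in mdx5cv, with no overlap. Several of these genes, the slow troponins among them, are also expressed in immature fibers, and regenerating fiber genes were higher in the same muscles, with 6 of 6 called higher. Their part in these values was not tested.

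**Figure D2:**
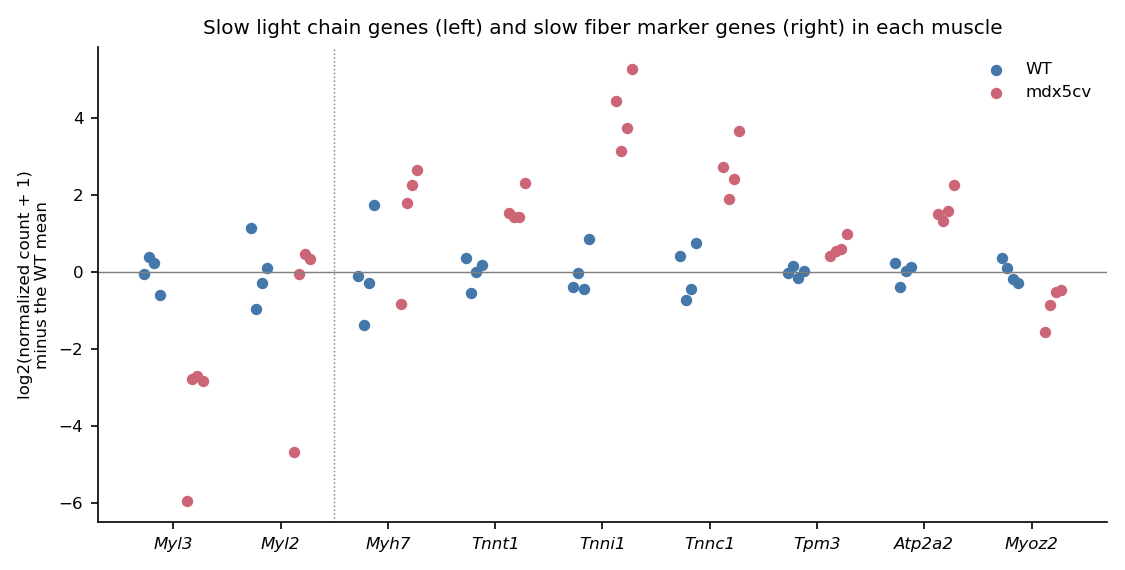
The slow light chain genes Myl3 and Myl2 and the 7 slow fiber marker genes, as log2(normalized count + 1) minus the WT mean of the gene (y axis); each point is 1 of 4 WT or 4 mdx5cv TA muscles. The mdx5cv points of Myl3 lie below all WT points, those of Tnnt1, Tnni1, Tnnc1, Tpm3 and Atp2a2 lie above them, and the lowest mdx5cv point of Myl2, Myl3, Myh7 and Myoz2 is that of replicate 1.

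The mdx5cv replicate 1 muscle was low in other genes of the myosin family as well. Myh2, the heavy chain of fast oxidative fibers, was at 714 normalized counts there and at 3955 to 5751 in the other mdx5cv muscles. Myh6, Myh7b and Myh13 were at 5.56, 5.56 and 12.97, each the lowest of the 8 muscles. This muscle was not low throughout, with 635 normalized counts of Myl4 and 43085 of Mylpf, both inside the range of the other mdx5cv muscles. Without it, 2 members were still called higher and 2 lower.

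Myl4 encodes the essential light chain of the atrium and of embryonic skeletal muscle (chr11:104550663-104595753, plus strand). Its normalized counts were 47.0, 61.4, 59.7 and 49.8 in WT and 635, 322, 538 and 959 in mdx5cv. The WT muscles were close together, every mdx5cv muscle was several times higher, and mdx5cv replicate 4 was the highest. The means were 54.5 ± 7.16 and 613 ± 265 (SD, n = 4), an 11.3-fold higher level, and the log2 fold change was 3.37 (SE 0.25, limma adjusted p = 1.23e-06). It ranged from 3.12 to 3.73 over the alternatives and was called under all of them.

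The developmental heavy chains were higher in the same muscles. Myh3, embryonic heavy chain, lay between 30.7 and 48.7 normalized counts in WT and at 3346, 1279, 1820 and 5957 in mdx5cv (log2 fold change 6.02, limma adjusted p = 3.32e-07). Myh8, the perinatal heavy chain, lay between 44.5 and 63.0 in WT and between 457 and 1023 in mdx5cv (3.74, limma adjusted p = 1.71e-07). Among the mdx5cv muscles, replicate 4 was highest and replicate 2 lowest for Myl4, Myh3 and Myh8. The log2 ratio of Myl4 to Myh3 averaged 0.45 ± 0.429 for WT and −2.19 ± 0.395 for mdx5cv (SD, n = 4), a difference of −2.64 with no overlap (exact permutation p = 0.0286, adjusted p = 0.0571). Myl7, the regulatory light chain of the atrium, had at most 1 read in any muscle, and Nppa had none. Of the other heart markers, Tnnt2 and Actc1, genes of heart and of immature skeletal muscle, were called higher. Myh6 went the other way and was called lower (log2 fold change −1.52, limma adjusted p = 0.00989). Nppb and Tnni3 were too low to be tested.

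Myl6b encodes an essential light chain found in slow muscle and in nonmuscle cells (chr10:128494157-128498685, minus strand). It was read at 6.88, 23.0, 27.6 and 25.4 normalized counts in WT and at 59.3, 41.5, 53.1 and 77.5 in mdx5cv. The groups did not overlap, and WT replicate 1 was low. The means were 20.7 ± 9.43 and 57.9 ± 15.03 (SD, n = 4), a 2.79-fold difference, with a log2 fold change of 1.56 (SE 0.37, limma adjusted p = 0.00432). Without WT replicate 1 the log2 fold change was 1.13 (limma adjusted p = 0.00340). These values rest on 6 to 97 reads per muscle.

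Its neighbour on chromosome 10, Myl6, encodes the common essential light chain of smooth muscle and nonmuscle cells (chr10:128490860-128494145, minus strand). It gave 601, 645, 677 and 754 normalized counts in WT and 658, 615, 668 and 762 in mdx5cv. The groups overlapped over nearly their whole range, and the log2 fold change was 0.01 (SE 0.11, limma adjusted p = 0.926). The log2 ratio of Myl6b to Myl6 averaged −5.10 ± 0.778 for WT and −3.55 ± 0.247 for mdx5cv (SD, n = 4), a difference of 1.55 with no overlap (exact permutation p = 0.0286, adjusted p = 0.0571). The coding sequences of both genes are 80.0% identical over 455 aligned bases.

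The share of each sarcomeric essential light chain gene was also computed. Levels were compared between genes per kilobase of exon, using the bases covered by any exon of the coding transcripts of each gene. Of the summed level of Myl1, Myl3, Myl4 and Myl6b, Myl1 made up 99.0% ± 0.193 in WT and 98.0% ± 1.14 in mdx5cv (SD, n = 4). Myl3 went from 0.833% ± 0.187 to 0.116% ± 0.0716 and Myl4 from 0.114% ± 0.0104 to 1.67% ± 1.03 (SD, n = 4). Myl6b went from 0.0509% ± 0.0236 to 0.182% ± 0.0800 (SD, n = 4). Among these 4 genes, the second place after Myl1 was held by Myl3 in each WT muscle and by Myl4 in each mdx5cv muscle. Myl6, the essential chain of smooth muscle and nonmuscle cells, was not counted in this sum. On the regulatory side, Myl2 made up 0.0407% ± 0.0252 of the summed level of Mylpf and Myl2 in WT and 0.0353% ± 0.0278 in mdx5cv (SD, n = 4).

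**Figure D3:**
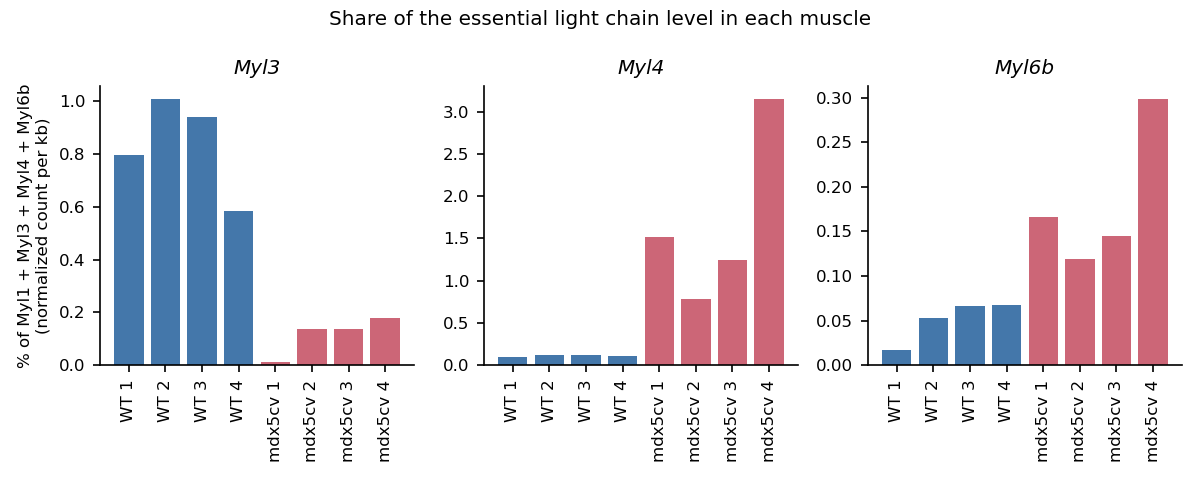
Share of Myl3, Myl4 and Myl6b in the summed essential light chain level (y axis, percent of Myl1 + Myl3 + Myl4 + Myl6b in normalized counts per kilobase, from 0, with a scale for each gene); each bar is 1 TA muscle. Myl3 falls from a mean of 0.833% in WT to 0.116% in mdx5cv, and Myl4 reaches 3.15% in mdx5cv replicate 4.

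Over all 10 members, the order of mean levels per kilobase in WT was Mylpf (54790), Myl1 (39390), Myl6 (396), Myl3 (335), Myl9 (220.0), Myl12a (197), Myl4 (45.3), Myl2 (22.8), Myl6b (20.2) and Myl12b (8.59). In mdx5cv it was Mylpf (53659), Myl1 (31932), Myl4 (510.1), Myl6 (399.8), Myl12a (226), Myl9 (142), Myl6b (56.4), Myl3 (36.3), Myl2 (17.9) and Myl12b (9.21). By these means Myl4 moved from rank 7 to rank 3, and Myl3 from rank 4 to rank 8. In mdx5cv replicate 2, however, Myl4 (268) was below Myl6 (364). The ranks also depend on the length used. Myl4 has 1202 exon bases in the coding transcripts used here and 4637 over all its transcripts, and Myl6 has 1690 and 3187. Ranks by the longer lengths were not computed. In WT the neighbours Myl6 and Myl3, Myl9 and Myl12a, and Myl2 and Myl6b differed by less than the larger of their SDs. In mdx5cv the pairs Myl4 and Myl6, Myl6b and Myl3, Myl3 and Myl2, and Myl2 and Myl12b did so, and the order within these pairs should not be read from the means.

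Myl9 encodes the regulatory light chain of smooth muscle (chr2:156775420-156781658, plus strand). Its normalized counts were 256, 254, 217 and 266 in WT and 138, 125, 214 and 165 in mdx5cv. The groups did not overlap, although mdx5cv replicate 3 was close to WT replicate 3. The means were 248 ± 21.6 and 161 ± 39.7 (SD, n = 4), and the log2 fold change was −0.65 (SE 0.16, limma adjusted p = 0.00559). With equal library totals it was −0.30 and was not called (limma adjusted p = 0.200).

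Other genes of smooth muscle and pericytes were lower in the same muscles. Myh11, the smooth muscle heavy chain, lay between 459 and 726 normalized counts in WT and between 276 and 373 in mdx5cv (log2 fold change −0.87, limma adjusted p = 0.000379). Of the 5 genes tested in the list of smooth muscle and pericyte markers, 3 were called lower (Myh11, Tagln and Rgs5) and 1 higher (Acta2), and Notch3 was not called. The summed level of that list was 5979 to 7272 in WT and 3927 to 4599 in mdx5cv, and 5 of 5 endothelial genes were called lower (3 of 5 with equal library totals). The part of these cells in the value of Myl9 was not tested. Within a muscle, the log2 ratio of Myl9 to Myh11 averaged −1.22 ± 0.268 for WT and −0.99 ± 0.439 for mdx5cv (SD, n = 4), a difference of 0.22 (exact permutation p = 0.429).

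Myl12a and Myl12b encode the regulatory light chains of nonmuscle myosin and lie next to each other on the minus strand of chromosome 17 (chr17:70993656-71002878 and chr17:70973133-70990890). Their coding sequences are 96.5% identical, with 501 of 519 bases the same. Only coding bases were compared, while the exons of the coding transcripts hold 2431 bases in Myl12a and 2312 in Myl12b. The first 90 coding bases, read from the GRCm38 genome through GENCODE M21, are printed with the 4 differing bases in capitals.
Myl12a: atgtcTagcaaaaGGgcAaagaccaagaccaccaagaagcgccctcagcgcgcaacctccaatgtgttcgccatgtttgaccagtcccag
Myl12b: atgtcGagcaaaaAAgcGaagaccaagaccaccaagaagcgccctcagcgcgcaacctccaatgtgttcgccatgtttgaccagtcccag

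Reads that cover such shared stretches could be assigned to the wrong gene or left uncounted, so the values of both genes are uncertain. The annotation also holds a second gene named Myl12b, on the same strand, that did not exceed 1.15 normalized counts. It shares 13.8% of the exon bases of Myl12a and 26.7% of those of Myl12b. Reads on these shared bases could also be left uncounted for every gene that holds them, which was not tested. The levels per kilobase given above make no correction for this. On the other strand, 6.16% of the Myl12a exon bases are shared with Myom1, an abundant M-band gene. Myom1 was at 19984 to 21003 normalized counts in WT and at 12056 to 17520 in mdx5cv. Its part in the values of Myl12a was not tested. The coding sequence of Myl9 is 85.5% identical to that of Myl12a and 86.3% to that of Myl12b.

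Myl12a was read at 499, 529.8, 514 and 371 normalized counts in WT and at 469, 550.0, 546 and 632 in mdx5cv. The groups overlapped, WT replicate 4 was low, and the log2 fold change was 0.20 (SE 0.13, limma adjusted p = 0.240). With equal library totals it was 0.56 and was called higher (limma adjusted p = 0.00669). Myl12b was near the lower end of what was counted, with 18.3, 20.8, 25.4 and 14.8 in WT and 20.4, 17.9, 18.9 and 28.0 in mdx5cv. Its log2 fold change was 0.10 (SE 0.26, limma adjusted p = 0.784), and the log2 ratio of Myl12a to Myl12b differed by 0.10 (exact permutation p = 0.486).

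Myl6, Myl12a and Myl12b were not called with the size factors of the authors. Markers of inflammatory and connective tissue cells were higher in the same muscles, with 5 of 5 macrophage genes and 4 of 5 fibroblast genes called higher, and their part in the values of these light chains was not tested. Myh9, the nonmuscle heavy chain that is abundant in such cells, was also called higher, from 1040 to 1413 normalized counts in WT to 1975 to 2884 in mdx5cv (log2 fold change 0.94, limma adjusted p = 0.000131). Myh10, its nonmuscle paralog, was not (0.19, limma adjusted p = 0.426).

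**Figure D4:**
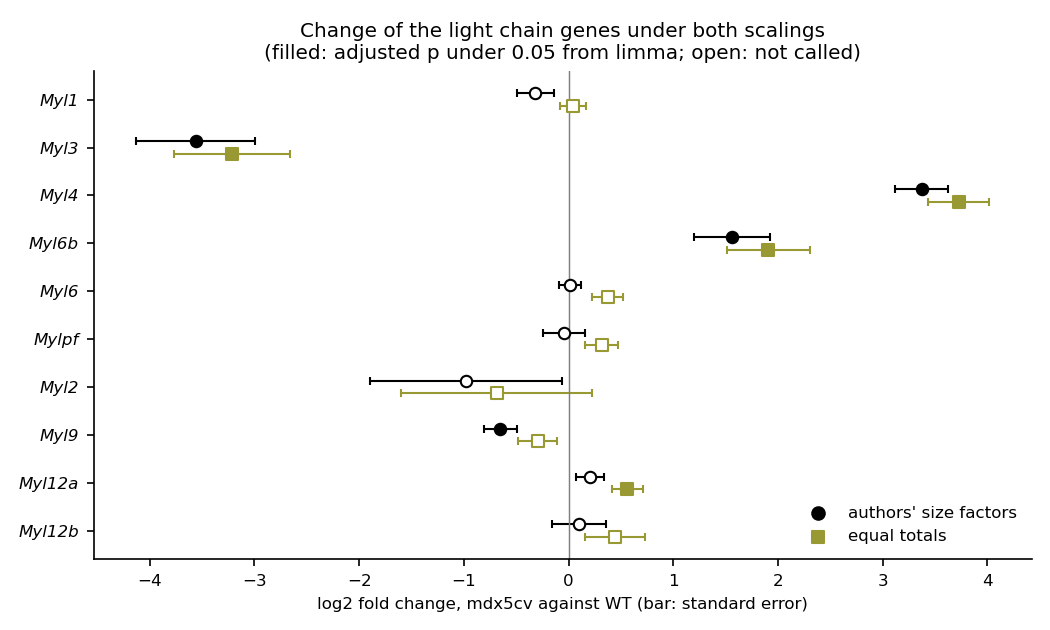
Log2 fold change of the 10 light chain genes, mdx5cv against WT (x axis, bars are standard errors from limma), with the size factors of the authors (circles) and with all libraries scaled to the same total (squares); filled symbols have an adjusted p under 0.05. Myl3, Myl4 and Myl6b are called under both scalings, Myl9 under the size factors only and Myl12a under equal totals only.

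The ratios within a muscle do not depend on how libraries are scaled, apart from the pseudocount. Of the 10 ratios with a pseudocount of 1, 5 had no overlap between the groups and an exact permutation p of 0.0286. They were Myl3 to Myh7, Myl4 to Myh3, Myl3 to Myl2, Myl2 to Myh7 and Myl6b to Myl6. The ratios among Myl3, Myl2 and Myh7 are not independent. On the log2 scale, that of Myl3 to Myh7 is the sum of those of Myl3 to Myl2 and Myl2 to Myh7. After adjustment over the 10 ratios, 0 passed 0.05, and the smallest adjusted p was 0.0571. No ratio could have passed alone, however large its difference, because 0.0286 is the smallest p that 4 against 4 muscles can give. With other pseudocounts, Myl3 to Myl2 overlapped at 0.1 and Myl2 to Myh7 at 10, while Myl3 to Myh7, Myl4 to Myh3 and Myl6b to Myl6 overlapped at neither. The other 5 ratios overlapped, with differences between −0.27 and 0.22.

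**Figure D5:**
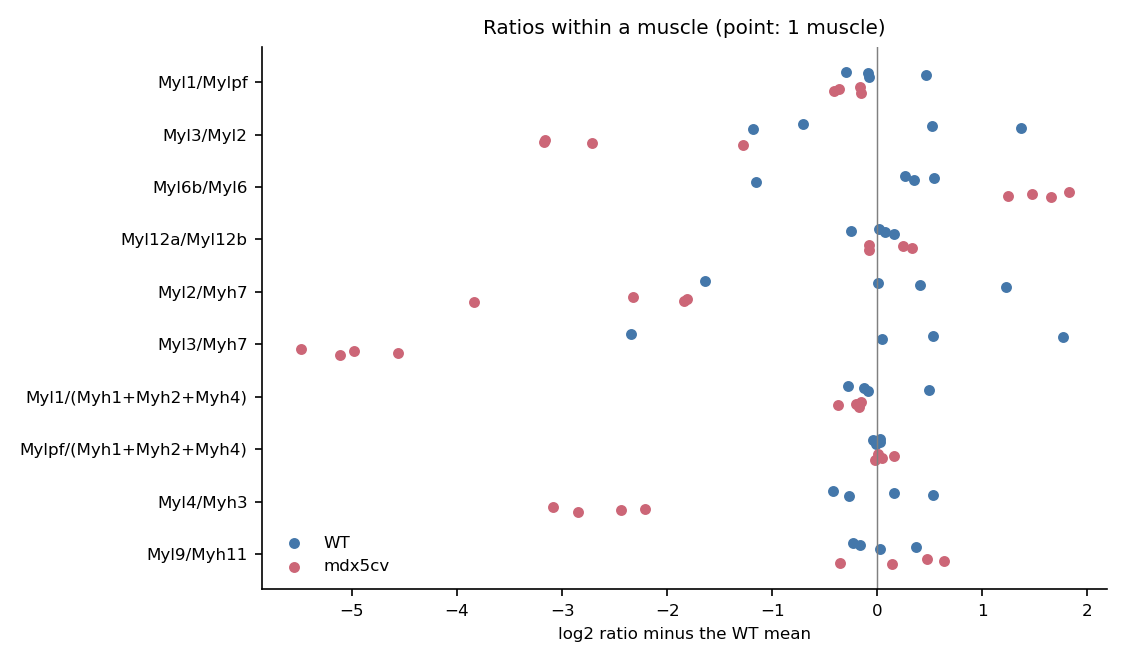
The 10 log2 ratios within a muscle, with a pseudocount of 1 and each minus its WT mean (x axis), with 1 point per TA muscle. The mdx5cv points of Myl3/Myh7, Myl4/Myh3, Myl3/Myl2 and Myl2/Myh7 lie below the WT points, those of Myl6b/Myl6 lie above them, and Myl3/Myl2 and Myl2/Myh7 overlap with another pseudocount (0.1 and 10).

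Regulatory light chains are phosphorylated by myosin light chain kinases and some other kinases, and dephosphorylated by a phosphatase built on Ppp1cb and a targeting subunit. Of 14 such genes, 12 were tested, of which 0 were called higher and 2 lower, against 20.9% and 20.1% of all genes, and their median log2 fold change was −0.06. With equal library totals 3 were higher and 0 lower. Mylk, the smooth muscle and nonmuscle kinase, lay at 406, 365, 441 and 446 normalized counts in WT and at 275, 270, 295 and 328 in mdx5cv. The groups did not overlap (log2 fold change −0.50, limma adjusted p = 0.00291), but with equal library totals the value was −0.15 and was not called (limma adjusted p = 0.448). The same held for Ppp1r12b, a targeting subunit abundant in striated muscle, at −0.33 (limma adjusted p = 0.0181) and 0.03 with equal totals. Mylk2, the skeletal muscle kinase, ranged from 5392 to 6704 normalized counts in WT and from 4145 to 6591 in mdx5cv and was not called (log2 fold change −0.09). Mylk4, a kinase also abundant in this muscle, ranged from 9706 to 13657 and from 9605 to 15632 and was not called either (0.01). Mylk3, the cardiac kinase, and Ppp1r14a, a smooth muscle phosphatase inhibitor, were too low to be tested.

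Among the 13 heavy chains, which the light chains bind, 3 were called higher (Myh3, Myh8 and Myh9). Another 6 were called lower (Myh2, Myh6, Myh7b, Myh11, Myh13 and Myh14), and the median log2 fold change was −0.14. Of all genes tested, 20.9% were called higher and 20.1% lower. With equal library totals 5 were higher and 4 lower. Myh2 was at −1.54 (limma adjusted p = 0.0241) but was not called with equal totals (limma adjusted p = 0.0515). Its adjusted p was up to 0.112 over the alternatives. Myh14 was no longer called with equal totals (limma adjusted p = 0.0882), nor Myh7b without WT replicate 1 or 3 (limma adjusted p = 0.0526 and 0.0546). The abundant Myh4 and Myh1 were not called, at −0.07 and −0.14. One further light chain gene could be tested. Myl10, a regulatory light chain, was at 40.1, 20.8, 36.5 and 22.2 normalized counts in WT and at 0.926, 21.7, 8.10 and 11.2 in mdx5cv. The groups overlapped, with mdx5cv replicate 1 lowest, and the gene was called lower (log2 fold change −1.83, limma adjusted p = 0.0242), with an adjusted p of up to 0.0706 under the alternatives.

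Genes that moved most like single members were found by the root mean square (RMS) difference of their log2 deviations from the WT mean over the 8 muscles, among about 7640 genes that averaged 100 normalized counts or more. For Myl3 these were Rhou, Dusp26 and Efcab6, at 0.854, 0.969 and 1.04, none of them a slow sarcomere gene. Dusp26, a phosphatase gene, went from a mean of 520 normalized counts in WT to 35.5 in mdx5cv. For Myl4 they were Runx1, Lcp1 and Fcgr3, at 0.274, 0.287 and 0.313. Runx1 is a transcription factor raised in denervated and damaged muscle, while Lcp1 and Fcgr3 are genes of leukocytes. For Myl2 they were Myh2, Ankrd2 and Myoz2, at 0.878, 1.13 and 1.32, all of them muscle genes. Myl2 had no read in mdx5cv replicate 1, and Myh2 and Myoz2 were also lowest there, at 714 and 76.0 normalized counts. How far this likeness rests on that muscle was not tested. For Mylpf they were Rcsd1, Sart1 and Abcf1, at 0.0757, 0.0844 and 0.0871, genes whose own levels differed little between the groups. The genes were ranked by this distance alone, and the values describe these 8 muscles.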

How the data were processed

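RNA-seq of 4 mdx5cv and 4 WT TA muscles was analysed, with groups taken from the sample labels. The labels number the replicates without saying that each came from a separate mouse, so p-values measure the spread between these samples, which may be technical. Per the labels, RNA was isolated with Trizol and, after removal of ribosomal RNA, made into reversely stranded libraries. The submitters' processing notes name FastQC, Trim Galore 0.6.4, STAR 2.6.0c, SAMtools 1.9, featureCounts, MultiQC 1.6, DESeq2 1.26.0, R 3.6.2 and mm10. The strand setting of the counter is not given in the sources used here.

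The authors deposited a signal per gene, which is its read count over the size factor of the sample. Whole reads were recovered from 100% of values (tolerance 0.001). No replicate pair agreed within sampling noise (chi-square per degree of freedom 8.59 to 38.4).

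Genotypes were compared in limma 3.58.1 under R 4.3.3 (variance trend, two-sided, no covariate) on log2(normalized count + 1) for genes with a mean of at least 10. edgeR 4.0.16 (quasi-likelihood) and DESeq2 1.42.0 on recovered reads, other scalings, filters and pseudocounts, a replicate block and the removal of each muscle were alternatives. The 10 ratios were tested with exact two-sided permutation tests and Benjamini-Hochberg adjustment. Coordinates and coding sequences are from GENCODE M21 (GRCm38), and promoters from RefSeq (GRCm38.p6). The scripts were tested on simulated data. The named genes are the members, other light chains, their kinases and phosphatase, heavy chains, Dmd and the 3 genes nearest in pattern to Myl2, Myl3, Myl4 and Mylpf. The members and lists were chosen with earlier results of these data known. Python 3.11.15, numpy 2.4.6, pandas 2.3.3, scipy 1.17.1, matplotlib 3.10.9 and Biopython 1.88 were used for the other steps.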

Additional observations from a re-analysis of the deposited data

Results flagged for a closer look

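Single muscles stood far from the other 3 of their group for 5 members and 1 ratio by Dixon's test, in which the gap to the nearest value is set against the range of the group. On the log2(normalized count + 1) scale, Myl3 was at 2.49 in mdx5cv replicate 1 against 5.61 to 5.73 in the other mdx5cv muscles. Myl2 was at 0 in the same muscle against 4.62 to 5.14. Myl1 was at 15.14 in mdx5cv replicate 4 against 15.60 to 15.67. Myl6b was at 2.98 in WT replicate 1 against 4.59 to 4.84, and the log2 ratio of Myl6b to Myl6 was −6.25 there against −4.84 to −4.56. Myl12a was at 8.54 in WT replicate 4 against 8.96 to 9.05. In all, 40 sets of 4 values were examined and 6 were flagged, where chance alone flags about 1 in 20. The sets are not independent, since Myl3 and Myl2 share a muscle and the ratio contains Myl6b.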

How the results depend on the processing

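The calls of Myl3, Myl4 and Myl6b held under every alternative in which each was tested, edgeR and DESeq2 included. With a minimum of 10 normalized counts in every sample, Myl3, Myl6b and Myl2 were no longer tested, and the members called numbered 1 higher and 1 lower, or 1 higher and 0 lower with a log2 fold change of at least 1. Scaling all libraries to equal totals shifted the median over all genes from 0.00 to 0.36 (log2) and the share of higher genes among those called with a log2 fold change of at least 1 from 76.0% to 91.5%. It left 1 member lower, and, of the kinase, phosphatase and heavy chain genes, called 8 higher and 4 lower, against 3 and 8 with the size factors of the authors. Under equal totals Myl9 lost its call, Myl12a gained one, and the log2 fold changes of Myl1 and Mylpf became 0.042 and 0.31.

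Uncalled members changed sign elsewhere. Myl6 was −0.080 with values centred on the median of each sample. When each muscle was left out in turn, Myl6 ranged from −0.044 to 0.074 (negative when WT replicate 1 or 2 or mdx5cv replicate 4 was absent), Mylpf from −0.17 to 0.12 (positive without WT replicate 4 or mdx5cv replicate 4), Myl2 from −1.46 to 0.25 (positive without mdx5cv replicate 1) and Myl12b from −0.032 to 0.22 (negative without WT replicate 4 or mdx5cv replicate 4). The cause was not tested. A ratio of 4 against 3 muscles cannot reach an exact permutation p under 0.0571, so ratios without 1 muscle are values only.

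The replicate numbers are shared by both genotypes without a stated link. Deviations of muscles with the same number correlated at 0.050, 0.031, 0.072 and 0.15, and 2 of 4 numbers correlated best with their own. With the replicate block limma called 5616 genes against 5597 without it, and no member changed its call. Of the heavy chains it also called Myh7 higher (limma adjusted p = 0.0322), and of the kinase and phosphatase genes it called 3 lower rather than 2.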
